A study of Mus musculus with 6 samples.

Results

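Transcripts of 10 genes that mark resident alveolar macrophages were followed in whole left lungs of mice, after warm ischemia and reperfusion and in naive animals. The members were Marco, Siglecf, Ear1, Ear2, Pparg, Fabp4, Fabp1, Krt79, Plet1 and Chil3, taken by symbol from a deposited table of 23194 genes. The table carried 9 of them under these symbols. Siglecf stood there as Siglec5 and was matched by its Ensembl identifier, ENSMUSG00000039013, so that all 10 were found. The rule that selects them uses gene names and no measured value, but the list was chosen with earlier results of these data known.

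The injured group was 3 left lungs of C57BL/6 mice, adult and of wild type, in which the left pulmonary artery had been tied for 4 h and blood had then flowed again for 24 h. They were set against 3 left lungs of naive mice of the same strain, genotype and age class, which the labels do not describe as operated on, so that surgery and ischemia cannot be told apart. Every library came from a left lung and hence from 1 mouse. Total gene counts ran from 20062818 to 23638078 in injured libraries and from 18913487 to 34986276 in naive libraries. The airway secretory gene Scgb1a1 averaged 21225 ± 2751 CPM (SD, n = 3) in injured lungs and 23135 ± 6061 CPM (SD, n = 3) in naive lungs, so a lung transcript was abundant in both groups. CPM, read counts divided by the library size in megareads, was taken here after TMM scaling, a correction for differences in library composition.

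Alveolar macrophages live on the air side of the alveolus, where they take up inhaled particles and break down surfactant. In mice they settle around birth and renew themselves in place. Their identity depends on GM-CSF, a cytokine made by alveolar type 2 cells, on TGF-beta, and on PPAR-gamma, a lipid-sensing nuclear receptor that switches on genes of lipid handling. Macrophages recruited from blood monocytes during injury carry few of these markers at first. In whole lung tissue, fewer macrophages of this kind and less RNA per macrophage cannot be told apart.

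After injury the alveolar macrophage genes did not move as a block. Chil3 rose, Marco was higher in every injured lung but missed the threshold, and the other 8 members had overlapping values in both groups. By edgeR's quasi-likelihood test, 1 of 10 members passed an adjusted p under 0.05 as higher and 0 as lower. Over all 15486 genes tested, 2.16% were called higher and 0.956% lower. All 10 members passed the filter on low counts. At an unadjusted p under 0.05 there were 2 members, Chil3 and Marco, or 20% of the list against 16.7% of all genes tested, and both were higher. DESeq2 called 2 members higher and 0 lower, where it called 3.78% of all genes higher and 2.69% lower. By limma-voom 1 member was higher and 0 lower, beside 1.91% and 0.846% of all genes. The authors' deposited table had 3.61% of its genes higher and 2.54% lower at an adjusted p under 0.05. The median log2 fold change of the members, injured over naive, was 0.0077, beside -0.00096 over all genes tested. CPM of the groups did not overlap for 2 of 10 members, and both were higher. Over all genes tested, the groups did not overlap for 12.3% as higher and 10.6% as lower, 22.9% together, so the members lay close to the background on this measure. With 1 library left out, the number of members called higher was 0 without injured replicate 1, injured replicate 2 or naive replicate 1, and 2 without injured replicate 3, where 2.12% of all genes were called higher and 0.828% lower. Without injured replicate 2, 1 member was called lower, beside 0.558% of all genes lower and 1.57% higher.

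**Figure D1:**
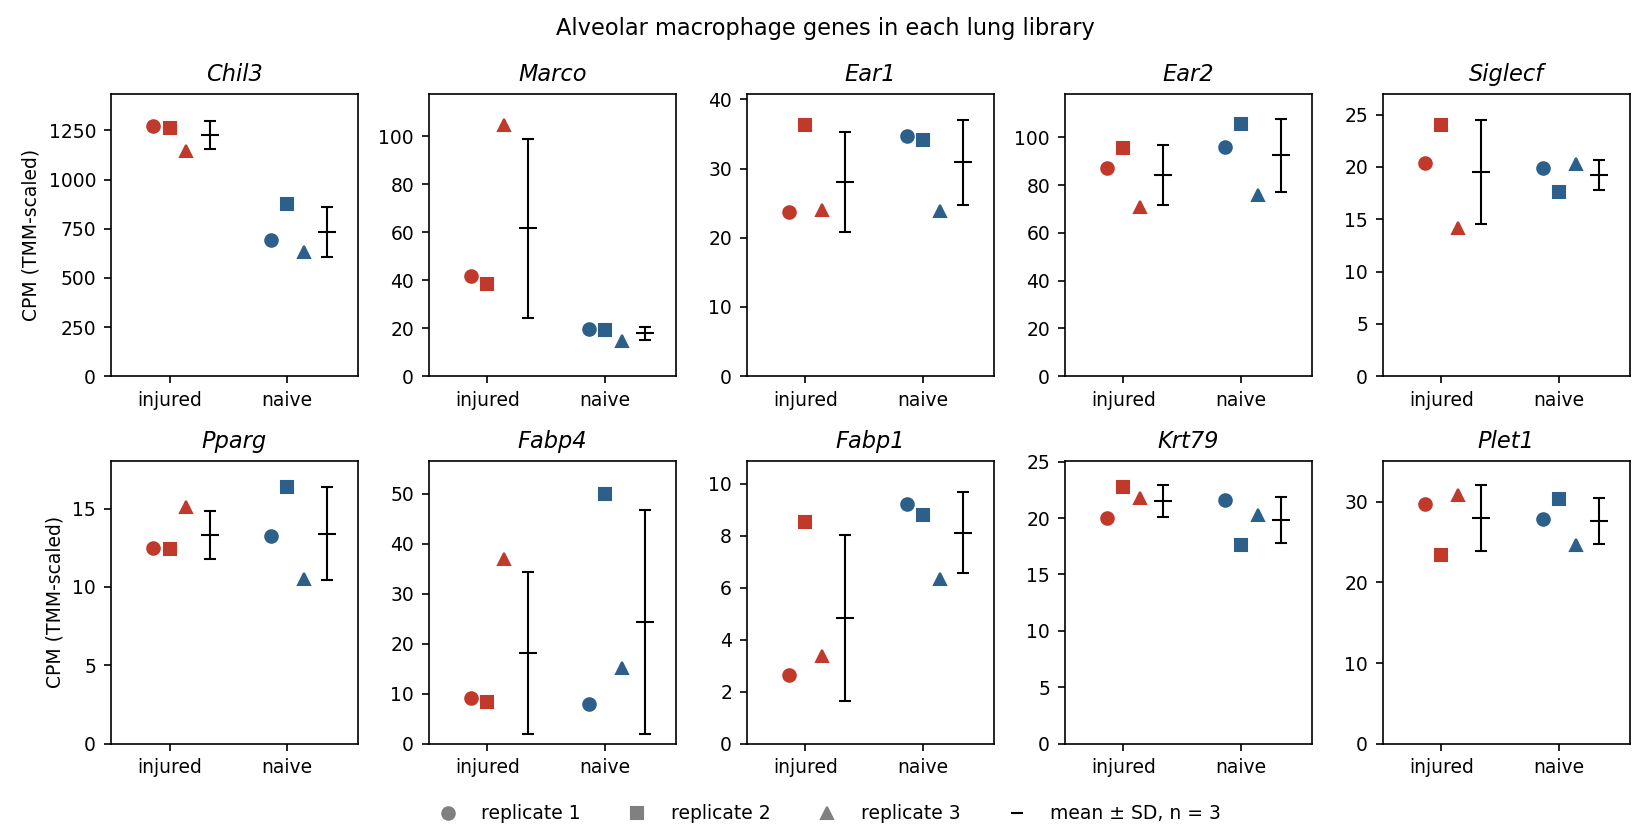
CPM of the 10 alveolar macrophage genes in each library (vertical axes start at 0 and differ between panels), with injured lungs in red, naive lungs in blue, symbols for replicates and bars for mean ± SD (n = 3). Chil3 and Marco are the panels in which all 3 injured lungs lie above all 3 naive lungs.

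Per transcript length, the order of the members was led by Chil3 in both groups. By the authors' deposited FPKM, which divide by gene length and library total, Chil3 averaged 801 ± 46.9 in injured lungs and 474 ± 85.6 in naive lungs (SD, n = 3 each). Ear2 came next at 118 ± 17.8 FPKM in injured lungs and 128 ± 22.7 FPKM in naive lungs, and in both groups it stood clear of the genes on either side of it. Ear1 followed at 39.5 ± 10.2 FPKM in injured lungs and 43.2 ± 9.10 FPKM in naive lungs. In injured lungs the levels then ran from Marco through Fabp4, Plet1, Krt79, Fabp1 and Siglecf to Pparg at 7.20 ± 0.823 FPKM, and among these neighbours only Plet1 and Krt79 did not overlap. In naive lungs they ran from Fabp4 through Plet1, Fabp1, Krt79, Marco and Siglecf to Pparg at 7.18 ± 1.66 FPKM, and only Fabp1 and Krt79 did not overlap. Marco thus had rank 4 in injured lungs with 32.2 ± 19.4 FPKM and rank 8 in naive lungs with 9.22 ± 1.46 FPKM. Its place in injured lungs was not separated from Ear1 above it or from Fabp4 below it.

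Chil3 encodes Ym1, a secreted chitinase-like protein without chitinase activity that alveolar macrophages make in quantity. The gene lies at chr3:106147554-106167564 on the minus strand in the table's mm10 coordinates. It stood at 1270.5, 1264 and 1146 CPM in injured replicates 1, 2 and 3, against 692, 874 and 632 CPM in naive replicates 1, 2 and 3. The lowest injured lung was above the highest naive lung. Means were 1227 ± 70.2 CPM in injured and 733 ± 126 CPM in naive lungs (SD, n = 3 each), a log2 fold change of 0.74 ± 0.13 (SE) with a 95% interval of 0.45 to 1.03 (edgeR adjusted p = 0.0161). The call was lost without injured replicate 1 (adjusted p = 0.0698), injured replicate 2 (adjusted p = 0.0510) or naive replicate 1 (adjusted p = 0.0567), while the log2 fold change stayed between 0.64 and 0.89 whichever library was left out. In the authors' deposited table Chil3 had a log2 fold change of 0.68, by an estimate whose method is not known here, with an adjusted p of 4.21e-06. Chil3 made up 83.7%, 82.4% and 78.1% of the summed CPM of the 10 members in injured replicates 1, 2 and 3, against 73.5%, 74.5% and 74.9% in naive replicates 1, 2 and 3. Without Chil3 the sums overlapped, at 247, 269.8 and 322 CPM in injured and 249.97, 299.7 and 212 CPM in naive lungs.

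Ym1 is also made by neutrophils and by some monocytes, and transcripts of both cell types differed between these groups. Of 14 neutrophil markers tested, 10 rose and 0 fell by edgeR, with a summed level of 831 to 1478 CPM in injured libraries against 75.9 to 108.1 CPM in naive libraries. Every marker of the list had counts. Ly6g, a surface antigen of mouse neutrophils, had 6.25, 6.96 and 2.24 CPM in injured lungs, against 0.0672, 0.106 and 0.293 CPM in naive lungs (log2 fold change 4.91 ± 0.61, adjusted p = 0.00518). S100a8 and S100a9, subunits of calprotectin, were called as well (adjusted p = 0.0243 and 0.00788), S100a8 not without injured replicate 1 or 2 or naive replicate 1 or 3 and S100a9 not without naive replicate 3, with adjusted p up to 0.107 and 0.0554. The injured lung with the lowest Ly6g was also the one with the lowest Chil3, whereas in naive lungs the highest Ly6g and the lowest Chil3 fell in the same library. Ly6g had only 14 counts over the naive libraries, too few to rank them. S100a8 and S100a9 were also lowest in injured replicate 3 but highest in naive replicate 1. Ltf, another marker of the list, was instead highest in injured replicate 3, at 160 CPM. Of 10 monocyte genes tested, 7 rose and 0 fell by edgeR, with sums of 1354 to 1449 CPM in injured and 822 to 1030 CPM in naive libraries. The number that rose was 4 without injured replicate 1, injured replicate 2 or naive replicate 2, and 3 without naive replicate 1. The sums came mostly from Fn1, which was not called (edgeR adjusted p = 0.0987). It had 1008, 1007 and 1103 CPM in injured lungs, against 714, 655 and 904 CPM in naive lungs. With 1 library left out, the call of Ly6c2 (adjusted p = 0.0362) held only without injured replicate 3. That of Ccr2 (adjusted p = 0.0413) held only without naive replicate 3. The largest changes were those of Cd177, which is a neutrophil antigen (log2 fold change 2.79 ± 0.20, adjusted p = 0.000165), of Ifitm6, an interferon-induced membrane protein (2.61 ± 0.28, adjusted p = 0.00217), and of the matrix proteoglycan Vcan (2.00 ± 0.31, adjusted p = 0.0241, up to 0.126 and lost without any 1 naive replicate). The part of these cells in the Chil3 difference was not tested. Chil4, the closest relative of Chil3 in the list, had 68 counts over the injured and 4 over the naive libraries and was not tested. Injured replicate 3 held most of them, at 2.70 CPM, against 0 and 0.177 CPM in injured replicates 1 and 2. Chil1, another relative, had 230, 192 and 1366 CPM in injured lungs, against 738, 829 and 734 CPM in naive lungs. It was not called (log2 fold change -0.36 ± 0.89, adjusted p = 0.892), nor was Chia1 (0.58 ± 0.31, adjusted p = 0.426). None of the 1508 stretches of 150 bases, the read length, in annotated Chil3 transcripts occurred in a transcript of another gene in GENCODE M21.

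The difference between Chil3 and each other member was tested directly, as the difference of their log2 CPM in each library. There were 9 such comparisons by an exact two-sided permutation test, which with 3 against 3 cannot give a p under 0.1. Relative to 7 members (Siglecf, Ear1, Ear2, Pparg, Fabp1, Krt79 and Plet1), Chil3 was higher in all 3 injured than in all 3 naive lungs, by 0.63 for Krt79 to 1.66 for Fabp1 on the log2 scale (exact permutation p = 0.1, the smallest possible, adjusted p = 0.113). Against Marco the sign was opposite, at -0.88 (exact permutation p = 0.1, adjusted p = 0.113). Against Fabp4 the groups overlapped, with a difference of 1.11 (exact permutation p = 0.3). None of the 9 passed a threshold of 0.05, which the design could not reach. Chil3, the reference, is the member called higher in these same data. All 9 comparisons share its values, so they are not independent of each other or of that call.

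Marco encodes a class A scavenger receptor with a collagen-like stem, which binds bacteria and unopsonised particles. It lies at chr1:120474538-120505024 on the minus strand. Its levels were 41.9, 38.4 and 105 CPM in injured replicates 1, 2 and 3, against 19.5, 19.1 and 14.9 CPM in naive replicates 1, 2 and 3. All injured lungs were above all naive lungs, and injured replicate 3 stood far above the other two injured lungs. Means were 61.7 ± 37.3 CPM in injured and 17.8 ± 2.58 CPM in naive lungs (SD, n = 3 each), a ratio of 3.46. The log2 fold change was 1.79 ± 0.46 (SE, 95% interval 0.64 to 2.95), and it missed the threshold with all libraries (edgeR adjusted p = 0.138). Without injured replicate 3 the log2 fold change was 1.17 and was called (adjusted p = 0.00243). DESeq2 called Marco with all libraries (log2 fold change 1.79, adjusted p = 0.00644), and in the authors' deposited table it had an adjusted p of 0.00851 with a log2 fold change of 0.79. How the deposited fold changes were estimated is not known here, so 0.79 and 1.79 may not be the same measure. Adjusted p by other scalings, filters, limma-voom and the replicate block ran from 0.0643 to 0.281, and with 1 other library left out from 0.101 to 0.339.

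Msr1, another class A scavenger receptor of macrophages in the list of member relatives, rose. It stood at 13.4, 14.1 and 27.1 CPM in injured lungs, against 3.33, 2.54 and 3.01 CPM in naive lungs (log2 fold change 2.61 ± 0.30, adjusted p = 0.00388). As with Marco, injured replicate 3 was the highest. Colec12, a scavenger receptor of endothelial cells, fell (log2 fold change -0.43 ± 0.093, adjusted p = 0.0372), a call lost without injured replicate 1 or 2 or naive replicate 2 or 3, with adjusted p up to 0.162.

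**Figure D2:**
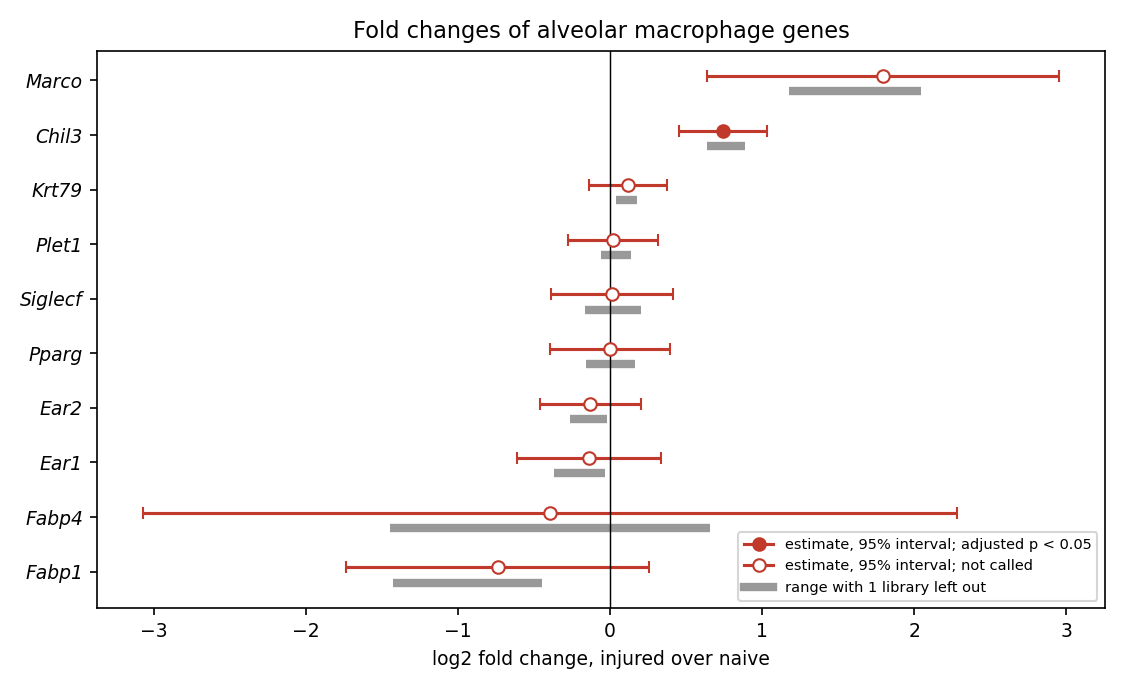
Log2 fold change (horizontal axis, injured over naive) of each alveolar macrophage gene with its 95% interval; filled points had an adjusted p under 0.05, and grey bars give the range with 1 library left out. Chil3 is filled, Marco has the highest estimate with a wide interval, and the grey bars of Siglecf, Pparg, Plet1 and Fabp4 cross 0.

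Ear1 and Ear2 encode eosinophil-associated ribonucleases, which alveolar macrophages also make. Ear1 lies at chr14:43818765-43875517 on the minus strand and Ear2 at chr14:44102654-44103534 on the plus strand. Both are near copies from one gene cluster, and their promoters are printed to show how alike the copies are. The windows, of 250 bases before and 50 after the RefSeq start (GRCm38.p6), were aligned. Capitals mark bases that differ or stay unpaired.
Ear1, chr14:43819590-43819889, minus strand: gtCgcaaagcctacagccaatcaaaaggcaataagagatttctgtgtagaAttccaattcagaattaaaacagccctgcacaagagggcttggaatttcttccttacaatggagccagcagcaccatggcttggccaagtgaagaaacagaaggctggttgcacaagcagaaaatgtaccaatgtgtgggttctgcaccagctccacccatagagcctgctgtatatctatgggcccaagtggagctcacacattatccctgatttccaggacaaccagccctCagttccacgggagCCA
Ear2, chr14:44102404-44102703, plus strand: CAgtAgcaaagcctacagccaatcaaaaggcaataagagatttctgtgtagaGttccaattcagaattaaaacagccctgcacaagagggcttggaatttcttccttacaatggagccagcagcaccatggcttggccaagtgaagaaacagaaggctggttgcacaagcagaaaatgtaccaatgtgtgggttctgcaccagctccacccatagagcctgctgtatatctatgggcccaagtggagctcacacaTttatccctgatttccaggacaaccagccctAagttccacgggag
Of 297 paired bases 294 were identical, or 99.0%, and 3 bases of each window were unpaired. Ear2 had 87.0, 95.5 and 70.7 CPM in injured replicates 1, 2 and 3, against 96.1, 106 and 75.7 CPM in naive replicates 1, 2 and 3. Ear1 had 23.8, 36.4 and 24.0 CPM in injured lungs, against 34.7, 34.2 and 23.9 CPM in naive lungs. Values of the groups overlapped for both genes, and replicate 3 had the lowest Ear2 in each group. The log2 fold change was -0.13 ± 0.15 for Ear2 (SE, 95% interval -0.46 to 0.20, edgeR adjusted p = 0.726). For Ear1 it was -0.14 ± 0.21 (SE, 95% interval -0.61 to 0.34, adjusted p = 0.810). A fall of Ear1 by 0.61 or of Ear2 by 0.46 on the log2 scale still lay within these intervals.

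Some sequence of these genes recurs elsewhere in the family, so part of their counts is uncertain. Of 564 stretches of 150 bases in annotated Ear1 transcripts, 32 (5.67%) also occurred in Ear-ps9, and of 570 in Ear2 transcripts, 36 (6.32%) also occurred in Ear10. Ear1 and Ear2 shared no such stretch with each other. How reads with several matches were counted is not stated in the labels or headers. The ratio of Ear1 to Ear2 counts was 0.273, 0.381 and 0.3397 in injured lungs, against 0.361, 0.323 and 0.315 in naive lungs, with overlap between the groups. Ear10 had 2 counts over the injured and 0 over the naive libraries and was not tested. Ear6, another member of the family, rose at a very low level, with 133 counts over the injured and 16 over the naive libraries (log2 fold change 3.31 ± 0.66, adjusted p = 0.0298). Injured replicate 3 stood highest for Ear6, at 3.80 CPM, with 1.14 and 0.886 CPM in injured replicates 1 and 2. Its call was lost without injured replicate 1 or without any 1 naive replicate, with adjusted p up to 0.136.

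Siglecf encodes an inhibitory sialic acid-binding lectin used to gate alveolar macrophages and eosinophils. It lies at chr7:43351341-43359531 on the plus strand. It had 20.3, 24.0 and 14.1 CPM in injured replicates 1, 2 and 3, against 19.9, 17.6 and 20.3 CPM in naive replicates 1, 2 and 3. The injured lungs held both the highest and the lowest value. Means were 19.5 ± 5.00 CPM in injured and 19.3 ± 1.44 CPM in naive lungs (SD, n = 3 each), with a log2 fold change of 0.014 ± 0.18 (SE, 95% interval -0.39 to 0.42, edgeR adjusted p = 0.981). Eosinophils, which share Siglecf and the Ear genes, gave few transcripts. Epx, their peroxidase, had 12 counts over the injured and 0 over the naive libraries, and Prg2, their major basic protein, had 54 and 10. The 8 markers of that list summed to 251.5 to 312 CPM in injured and 261 to 274 CPM in naive libraries, nearly all of it from Cd24a, which epithelial cells also express. Among related Siglec genes, Siglece (log2 fold change 1.66 ± 0.20, adjusted p = 0.00344) and Cd33 (log2 fold change 1.24 ± 0.17, adjusted p = 0.00649) rose. Siglecg (-0.52 ± 0.31, adjusted p = 0.462), Siglech (-0.53 ± 0.29, adjusted p = 0.416) and Siglec1 (0.32 ± 0.13, adjusted p = 0.247) were not called. Of these relatives, all but Siglece were named after their values were seen. Of 16 tested relatives of the members, 4 were called higher and 1 lower. The number lower was 3 without injured replicate 3 and 0 without injured replicate 1 or 2 or naive replicate 2 or 3.

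Pparg encodes PPAR-gamma, the receptor on which the alveolar macrophage programme depends, and lies at chr6:115361221-115490401 on the plus strand. It had 12.5, 12.4 and 15.1 CPM in injured replicates 1, 2 and 3, against 13.3, 16.4 and 10.5 CPM in naive replicates 1, 2 and 3. The groups overlapped, and means were 13.3 ± 1.54 CPM in injured and 13.4 ± 2.96 CPM in naive lungs (SD, n = 3 each). The log2 fold change was 0.00090 ± 0.18 (SE), with a 95% interval of -0.39 to 0.39 (edgeR adjusted p = 0.999).

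Fabp4 and Fabp1 encode lipid-binding proteins. Fabp4, a fatty acid carrier of macrophages, fat cells and capillary endothelium and a target of PPAR-gamma, lies at chr3:10204347-10208576 on the minus strand. It had 9.23, 8.42 and 37.0 CPM in injured replicates 1, 2 and 3, against 7.86, 49.98 and 15.2 CPM in naive replicates 1, 2 and 3. Injured replicate 3 and naive replicate 2 stood far above the rest of their groups. The log2 fold change was -0.39 ± 1.00 (SE), with a 95% interval of -3.07 to 2.28 that allows a large change either way (edgeR adjusted p = 0.897). It was -1.44 without injured replicate 3 and 0.66 without naive replicate 2.

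Some fat cell transcripts were highest in the same libraries. Adipoq, the adiponectin gene, had 1.14, 0.443 and 6.54 CPM in injured lungs, against 1.31, 13.6 and 6.12 CPM in naive lungs. Plin1, which coats the lipid droplet of fat cells, had 1.84, 0.931 and 5.23 CPM in injured lungs, against 1.21, 14.5 and 5.21 CPM in naive lungs. Retn, the resistin gene, had 0.645, 0.133 and 2.24 CPM in injured lungs, against 0.504, 5.24 and 2.78 CPM in naive lungs. These 3 genes were picked from the 8 adipocyte markers after their values were seen, and not every marker had this pattern. Lipe had 88.7, 111 and 107.4 CPM in injured lungs, against 36.9, 53.5 and 70.8 CPM in naive lungs, and so was highest in injured replicate 2 and naive replicate 3. Pnpla2 was highest in injured replicate 2 and Cidea in naive replicate 1. All 8 markers had counts, and together they summed to 275 to 322 CPM in injured and 229 to 279 CPM in naive libraries, mostly from Pnpla2 and Lipe, which other cells also express. The part of fat cells in the Fabp4 values was not tested. Capillary endothelial genes summed to 4776 to 5552 CPM in injured and 5589 to 6485 CPM in naive libraries. Of 11 tested, 1 was called lower and 0 higher by edgeR. It was Tmem100 (log2 fold change -0.63 ± 0.11, adjusted p = 0.0161), whose call was lost without injured replicate 2 or naive replicate 2, with adjusted p up to 0.0693. Without injured replicate 3, 2 of the 11 were called lower.

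**Figure D3:**
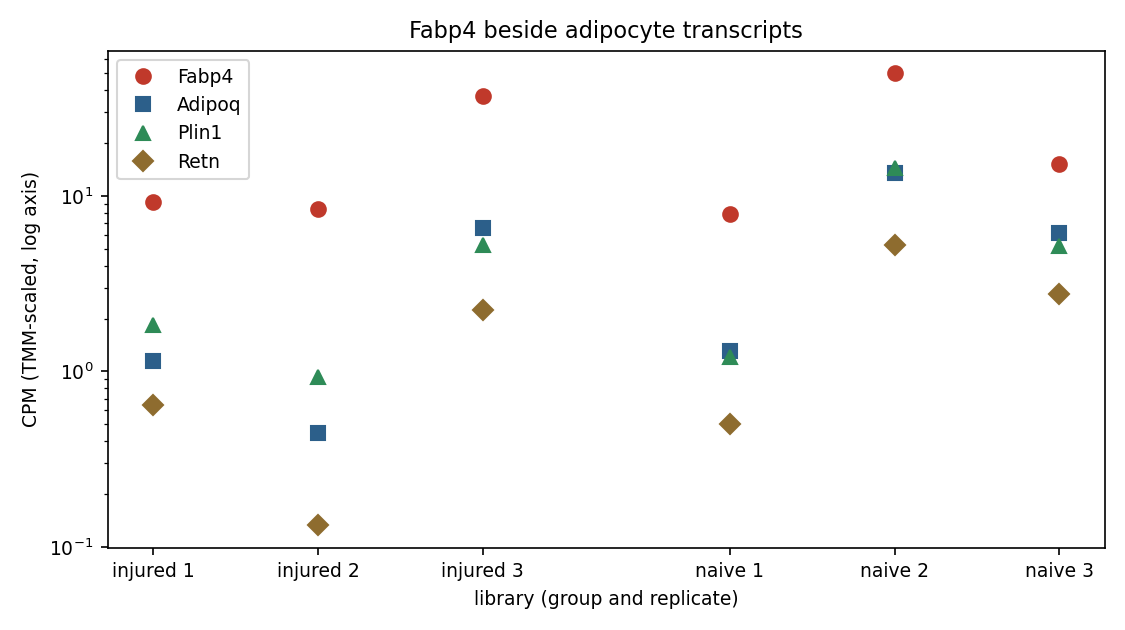
CPM (log axis) of Fabp4 and of the fat cell genes Adipoq, Plin1 and Retn in the 3 injured and 3 naive libraries. Injured replicate 3 and naive replicate 2 hold the highest value of every gene in their groups.

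Fabp1, known as the liver fatty acid-binding protein and also present in mouse alveolar macrophages, lies at chr6:71199827-71205023 on the plus strand. It had the lowest mean CPM of the members, though not the lowest FPKM, with 53, 192 and 80 counts in the injured and 274, 166 and 216 counts in the naive libraries. In CPM these were 2.63, 8.51 and 3.37 in injured replicates 1, 2 and 3, against 9.21, 8.78 and 6.32 in naive replicates 1, 2 and 3. Injured replicates 1 and 3 were below every naive lung, and injured replicate 2 lay among the naive lungs. Fabp1 thus had a log2 fold change of -0.74 ± 0.43 (SE, 95% interval -1.73 to 0.26, edgeR adjusted p = 0.452). Without injured replicate 2 it was -1.42 and was called lower (adjusted p = 0.0315), the single setting in which any member was called lower. Liver transcripts were scarce, with the 5 measured liver genes summing to 2.18 to 4.92 CPM in injured and 2.43 to 3.07 CPM in naive libraries. Ahsg, the liver glycoprotein fetuin-A, had 1.34, 2.61 and 3.21 CPM in injured lungs, against 0.571, 1.06 and 0.966 CPM in naive lungs, and was not called (adjusted p = 0.0919). Apob had 0.595, 2.08 and 0.464 CPM in injured lungs, against 1.21, 0.793 and 0.644 CPM in naive lungs (adjusted p = 0.885). Alb, the albumin gene, had 18 counts over the injured and 71 over the naive libraries.

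Krt79 and Plet1 had the smallest spread of the members over all 6 libraries, a root mean square of 0.12 for Krt79 and 0.15 for Plet1 on the log2 scale. Krt79, an epidermal keratin that also marks mouse alveolar macrophages, lies at chr15:101929332-101940324 on the minus strand. It had 19.996, 22.8 and 21.8 CPM in injured replicates 1, 2 and 3, against 21.6, 17.6 and 20.2 CPM in naive replicates 1, 2 and 3. Its coefficient of variation was 6.56% in injured and 10.2% in naive lungs. Krt79 had a log2 fold change of 0.12 ± 0.12 (SE, 95% interval -0.14 to 0.38, edgeR adjusted p = 0.679). Plet1, a surface protein of placenta and of some epithelial progenitors, lies at chr9:50494525-50505482 on the plus strand. It had 29.8, 23.4 and 30.8 CPM in injured lungs, against 27.8, 30.4 and 24.7 CPM in naive lungs, with overlap between the groups. That of Plet1 was 0.021 ± 0.13 (SE, 95% interval -0.28 to 0.32, edgeR adjusted p = 0.963). Squamous keratins that could accompany Krt79 were scarce and too low to be tested, with 9 counts of Krt13 over the injured and 14 over the naive libraries. Krt4 had 4 counts over the injured and 5 over the naive libraries. Krt6a had 52 counts over the injured and 2 over the naive libraries, and Krt5 had 57 over the injured and 12 over the naive libraries. Injured replicate 2 held most of the Krt6a counts and injured replicate 3 most of the Krt5 counts.

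The promoter windows of 9 members were found in RefSeq (GRCm38.p6), as 11 windows because Pparg has several. They were searched on both strands for GGAAGT, the core bound by the macrophage factor PU.1, AGGTCA, the half-site of PPAR-gamma and related receptors, TTGCNNAA for C/EBP factors, TATAAA, and CACGTG, bound by Bhlhe40 and Bhlhe41. No match overlapped another. The windows with a match are shown for Chil3, the member that rose, for Siglecf, which shares its PU.1 core, and for Fabp1, which holds PPAR half-sites, with the matches in capitals.
Chil3, chr3:106167515-106167814, minus strand: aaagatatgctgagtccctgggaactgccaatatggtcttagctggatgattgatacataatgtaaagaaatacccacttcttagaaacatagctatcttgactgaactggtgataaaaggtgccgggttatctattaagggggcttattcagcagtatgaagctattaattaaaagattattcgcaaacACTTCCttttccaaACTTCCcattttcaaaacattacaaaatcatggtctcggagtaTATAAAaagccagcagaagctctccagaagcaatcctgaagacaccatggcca
Siglecf, chr7:43351091-43351390, plus strand: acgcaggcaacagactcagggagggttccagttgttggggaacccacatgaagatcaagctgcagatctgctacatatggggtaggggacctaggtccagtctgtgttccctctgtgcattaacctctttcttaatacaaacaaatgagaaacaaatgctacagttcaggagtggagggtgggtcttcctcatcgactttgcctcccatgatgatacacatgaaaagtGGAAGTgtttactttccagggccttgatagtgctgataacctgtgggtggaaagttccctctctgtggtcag
Fabp1, chr6:71199629-71199928, plus strand: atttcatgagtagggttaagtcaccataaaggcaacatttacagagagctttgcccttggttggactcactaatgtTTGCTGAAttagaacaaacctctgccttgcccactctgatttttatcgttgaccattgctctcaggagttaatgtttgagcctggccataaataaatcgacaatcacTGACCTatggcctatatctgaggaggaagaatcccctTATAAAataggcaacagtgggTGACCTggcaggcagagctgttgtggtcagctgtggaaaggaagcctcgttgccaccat
Chil3 held GGAAGT on the opposite strand, beginning 60 and 46 bases before the start, and TATAAA at 3 bases before it. Siglecf held GGAAGT 22 bases before the start. Fabp1 held AGGTCA on the opposite strand 67 and 9 bases before the start, TTGCNNAA at 174 and TATAAA at 30 bases before it. Among all 32851 windows of this length, 23.8% held GGAAGT, 16.3% AGGTCA, 10.8% TTGCNNAA, 13.6% TATAAA and 7.15% CACGTG. Windows of Ear1 and Ear2 each held TTGCNNAA, windows of Pparg held AGGTCA, TTGCNNAA or TATAAA, and Plet1 held AGGTCA, TTGCNNAA and TATAAA. No searched motif was found in the windows of Marco and Krt79. Such matches describe letters and are not evidence of binding.

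Few other genes of the alveolar macrophage programme were called. Of 15 further alveolar macrophage genes tested, 1 was called higher and 0 lower by edgeR, beside 2.16% and 0.956% of all genes. Their median was 0.090 on the log2 scale. The gene called was Lpl, lipoprotein lipase, at 548, 432 and 461 CPM in injured lungs, against 327, 263 and 257 CPM in naive lungs (log2 fold change 0.77 ± 0.13, adjusted p = 0.0127). Lpl is also made by fat cells and alveolar epithelium, and its call was lost without injured replicate 1 or naive replicate 2, with adjusted p up to 0.0760. Without injured replicate 3 the count was 2, and by DESeq2 it was 3, beside 3.78% of all genes called higher. With no filter on low counts or with the replicate block it was 2. Car4, a carbonic anhydrase of alveolar macrophages and capillaries, had a log2 fold change of -0.14 ± 0.11, Mrc1, the mannose receptor, 0.090 ± 0.11, and Itgax, or CD11c, -0.38 ± 0.13, none of them called. Itgax was nevertheless lower in every injured lung (44.4, 50.3 and 34.9 CPM) than in every naive lung (57.2, 57.9 and 53.7 CPM). Atp6v0d2, Krt19 and Cd9 were higher in every injured lung than in every naive lung and were not called either (edgeR adjusted p = 0.0736, 0.0766 and 0.608). Apart from Lpl, these genes were named after their values were seen.

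In the GM-CSF, TGF-beta and PPAR-gamma pathway, 4 of 24 tested genes were called higher and 0 lower by edgeR, with a median of 0.083. Over all genes, 2.16% were called higher and 0.956% lower. By DESeq2, 6 of the 24 were higher and 1 lower, beside 3.78% and 2.69% of all genes. With the replicate block 5 were higher and 1 lower. Csf2rb, the shared signalling chain of the GM-CSF receptor, had 91.5, 70.0 and 78.6 CPM in injured lungs, against 48.8, 45.7 and 43.9 CPM in naive lungs (log2 fold change 0.79 ± 0.11, adjusted p = 0.00629). Its near copy Csf2rb2 was called as well (log2 fold change 0.91 ± 0.13, adjusted p = 0.00649). Sequence shared within the pair was not measured. Spi1, which encodes PU.1, had 88.5, 77.0 and 70.9 CPM in injured lungs, against 38.7, 44.6 and 40.6 CPM in naive lungs (log2 fold change 0.93 ± 0.11, adjusted p = 0.00238). These 3 calls held whichever library was left out. The remaining call was Cebpb, a myeloid transcription factor (log2 fold change 0.61 ± 0.12, adjusted p = 0.0310), lost without injured replicate 1 or 3 or naive replicate 1 or 2, with adjusted p up to 0.130. With injured replicate 3 and naive replicate 2 both left out, 1 of the 24 was called. Neutrophils and monocytes also express Csf2rb and Spi1, and their marker levels, given above beside Chil3, differed between the groups. Their part in these differences was not tested. Csf2, the GM-CSF gene itself, lay at 0.177 to 0.886 CPM in injured and 0.0336 to 0.731 CPM in naive libraries.

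Genes shared by most macrophages and leukocytes included several that rose. Of 10 tested, 5 rose and 0 fell by edgeR, with a median of 0.75, and 3 rose without naive replicate 2. Itgam, or CD11b, which resident alveolar macrophages carry at a low level, had 103, 99.7 and 93.9 CPM in injured lungs, against 23.3, 22.2 and 19.5 CPM in naive lungs (log2 fold change 2.19 ± 0.099, adjusted p = 2.14e-05). Tyrobp, a signalling adaptor of myeloid receptors, rose as well (0.88 ± 0.10, adjusted p = 0.00243), and so did Cd14, a co-receptor for endotoxin (1.07 ± 0.16, adjusted p = 0.0103, lost without naive replicate 2 or 3, up to 0.0603). Of 12 interstitial macrophage genes tested, 5 rose and 0 fell, with a median of 0.67. Their summed level was 573 to 721 CPM in injured and 714 to 768 CPM in naive libraries. Lyve1, a hyaluronan receptor also found on lymphatic endothelium, had 352, 276 and 191 CPM in injured lungs, against 466, 435 and 490.4 CPM in naive lungs, and was not called (log2 fold change -0.76 ± 0.20, adjusted p = 0.0973). Lyve1 was named after its values were seen. By DESeq2, and by edgeR without injured replicate 1 or 3, 1 gene of the list was called lower. Of the 12, 1 rose without injured replicate 2, naive replicate 1 or naive replicate 3, and 2 without naive replicate 2. The genes that rose were led by the chemokine Pf4 (1.69 ± 0.25, adjusted p = 0.0105), lost without naive replicate 2 or 3, up to 0.0618. They included the complement gene C1qb (0.85 ± 0.16, adjusted p = 0.0250), lost without injured replicate 2 or 3 or any 1 naive replicate, up to 0.0774. Alternative activation genes, with which Chil3 is often grouped, counted 3 rises and 0 falls among 12 tested, led by Arg1 (log2 fold change 5.19 ± 0.31, adjusted p = 0.000596) and the eosinophil chemoattractant Ccl24 (log2 fold change 2.65 ± 0.29, adjusted p = 0.00201). DESeq2 counted 6 rises and 1 fall. Trem2, a lipid-sensing receptor of macrophages, was the third (1.45 ± 0.24, adjusted p = 0.0116), lost without injured replicate 1 (adjusted p = 0.0588). Retnla, usually listed beside Chil3, had 38.3, 128 and 185 CPM in injured lungs, against 33.7, 32.4 and 31.3 CPM in naive lungs, and was not called (adjusted p = 0.237). Retnla was named after its values were seen. Of 10 proliferation genes, which would mark macrophage renewal among other dividing cells, 1 rose and 0 fell, Mcm5 (log2 fold change 0.88 ± 0.16, adjusted p = 0.0204), a call lost without any 1 naive replicate, with adjusted p up to 0.0744. Whether these lists differ from the members was not tested.

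**Figure D4:**
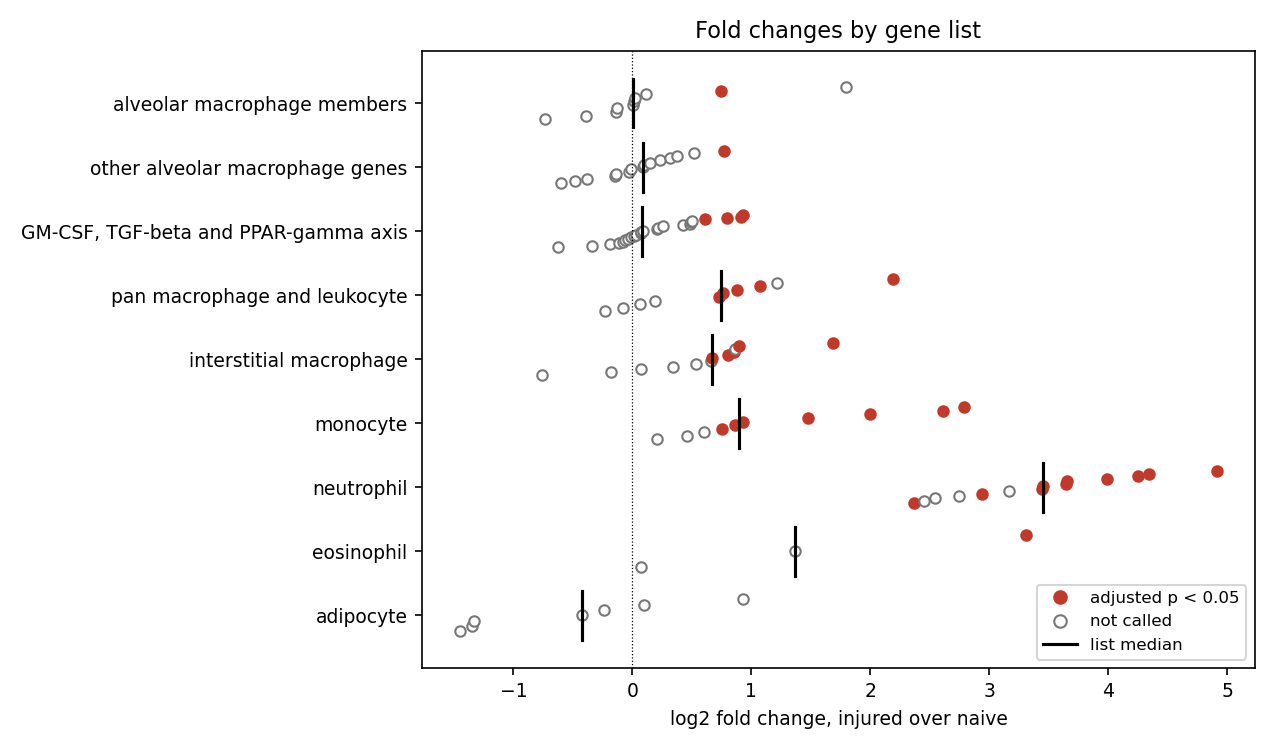
Log2 fold change (horizontal axis, injured over naive) of every tested gene of the alveolar macrophage members and of 8 companion lists; filled points had an adjusted p under 0.05 and vertical bars mark list medians. The member median is 0.0077, while medians of the monocyte and neutrophil lists are 0.90 and 3.45. The monocyte list includes Cd177, a neutrophil antigen.

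The genes whose pattern lay closest to a member were found by the root mean square difference of centred log2 CPM over the 6 libraries, among 14219 genes averaging at least 1 CPM. For Chil3 these were Slc39a8, a zinc and manganese transporter, at 0.091 and Plac8, one of the monocyte genes, at 0.092, where the spread of Chil3 itself was 0.41. Plac8 had 43.7, 39.4 and 39.3 CPM in injured lungs, against 22.6, 24.9 and 20.1 CPM in naive lungs. For Marco they were Tubb3, a tubulin, at 0.18 and Hmox1, the inducible haem oxygenase, at 0.18, where the spread of Marco was 0.95. Hmox1 had 83.8, 82.2 and 263 CPM in injured lungs, against 41.9, 45.0 and 43.8 CPM in naive lungs, so injured replicate 3 stood out for both genes. For Fabp1 they were Aoc2, an amine oxidase, at 0.21 and Tgtp2, an interferon-induced GTPase, at 0.22, where the spread of Fabp1 was 0.70.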

How the data were processed

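RNA-seq of 6 mouse left lungs was used, 3 per group. The authors deposited 1 table with read counts, normalized counts (a signal equal to the counts divided by 1 factor per library), FPKM, and their own log2 fold changes with p-values, per the file headers. STAR, HTSeq, STAR-Fusion, edgeR, DESeq2 and the build mm10 appear in the submitters' processing notes. The strand setting is not known here.

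Raw counts were tested with edgeR 4.0.16 (R 4.3.3): filterByExpr, TMM, robust quasi-likelihood F test, group as the only term, Benjamini-Hochberg adjustment over 15486 genes, two-sided, called at 0.05. Alternatives were DESeq2 1.42.0 (test or size factors), limma-voom (limma 3.58.1), other filters and scalings, a replicate block and each library left out. The members and gene lists were chosen with earlier results of these data known. Named genes were the members and, per list, the up to 3 called genes per direction with the largest change and at least 1 CPM (the 2 most abundant where none was called), near copies of members, and the nearest genes of the members with the highest and lowest mean CPM and of those with the largest rise and fall. Other genes were named after their values were seen, and 1 gene that the rule names is not reported here. Motifs were searched and windows aligned with Python 3.11.15 and Biopython 1.88. On counts simulated for this comparison over 15330 genes, 83 of 100 genes were found at a true log2 change of 1, and 96 of 100 at 2; 16 of the 195 calls were false. P-values measure the spread between 3 lungs per group.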

Additional observations from a re-analysis of the deposited data

How the results depend on the processing

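Chil3 kept its direction in every setting, with log2 fold changes of 0.74 to 0.76 and adjusted p from 4.50e-06 to 0.0221 when scaling, filter or test was changed. By DESeq2, 585 genes were called higher and 417 lower over all genes, and 2 members higher. With no filter on low counts 269 genes were called lower. With 1 library left out, 145 to 333 genes were called higher and 48 to 146 lower, and members called numbered 0 to 2 higher and 0 to 1 lower. With injured replicate 3 and naive replicate 2 both left out, a setting chosen after seeing the data, 158 genes were higher, 31 lower and 2 members higher; Ear1 (0.046) and Ear2 (0.093) then changed sign.

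Members near 0 changed sign elsewhere. Pparg was at -0.0048 with DESeq2's size factors, -0.0050 by DESeq2 and -0.0050 without the 20 most abundant genes. Siglecf was at -0.035 by limma-voom. With 1 library left out, Siglecf ran from -0.16 to 0.20, Pparg from -0.16 to 0.16, Plet1 from -0.061 to 0.14 and Fabp4 from -1.44 to 0.66. The cause was not tested.

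Deviations of same-numbered lungs from their group means correlated at 0.077, -0.085 and 0.15, and those of differently numbered lungs at -0.30 to 0.28. With 3 lungs per group, these values cannot decide whether the replicate numbers pair the lungs. With the replicate block 413 genes were called higher and 208 lower, 1 member (Chil3, 0.76, adjusted p = 0.00885) was called, and Siglecf was at -0.015.

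The differences between Chil3 and the other members kept their direction under other prior counts, the pairing by number and each library left out. The 3 lungs per group limit the precision; Fabp1, with 53 to 274 counts per library, had the fewest counts of the members.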
